A study of Rattus norvegicus with 6 samples.

Results

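The nuclear-encoded subunits of the mitochondrial respiratory chain and of ATP synthase were followed in spinal cord astrocytes that carried mutant human SOD1. The set held 59 genes, chosen by function from complexes I to V and including cytochrome c. Every probe set of the array whose platform annotation gave 1 of these symbols was taken, and each gene was read from its probe set with the highest mean log2 signal over the 6 arrays. By this rule 54 of the 59 genes had a value, from 59 probe sets, out of 14217 genes that any probe set with a single symbol named. The other 5 genes (Ndufa10, Uqcrb, Cycs, Cox7a2 and Atp5mc1) were named only on probe sets shared with another symbol and have no value here. All 54 genes with a value passed the filter on dim probe sets, which left 10473 genes with a single symbol for testing.

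Primary astrocytes were cultured from rat spinal cord, grown to confluence and moved to supplemented L15 medium before RNA isolation. The SOD1-G93A group held 3 samples carrying human superoxide dismutase 1 with a glycine-to-alanine substitution, the mutation that this transgenic rat carries as a model of amyotrophic lateral sclerosis. The NonTG group held 3 samples without the transgene. Expression was read on Affymetrix Rat Genome 230 2.0 arrays, 1 per sample, and each group had samples lettered A, B and C. The promoter of the transgene, the age of the animals and whether each sample came from its own animals are not given in the sources used here, and the p-values therefore speak only to how these samples vary, a variation that may be technical.

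The respiratory chain passes electrons from NADH through complex I, and from succinate through complex II, to ubiquinone, then through complex III and cytochrome c to oxygen at complex IV. Complexes I, III and IV pump protons across the inner mitochondrial membrane, and ATP synthase, called complex V, lets them flow back to make ATP. Most subunits are encoded in the nucleus and imported, while a small core of complexes I, III, IV and V is encoded by mitochondrial DNA. Astrocytes are known for a high rate of glycolysis and also hold a working respiratory chain.

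None of the 54 measured subunits passed the test between SOD1-G93A and NonTG cultures, and the differences were small in every complex. In limma, 0 of 54 had an adjusted p under 0.05, against 0 of 18625 probe sets overall (0%), and the smallest adjusted p among the subunits was 1.00. At an unadjusted p under 0.05 the count was again 0 in either direction, where 1.34% of all probe sets were higher and 1.2% lower. The point estimate was above 0 for 26 subunits and below 0 for 28, against 52% of all probe sets above 0 and 40.4% of the 2446 with a mean log2 signal of 11 or more. This split was 12 above and 42 below without the SOD1-G93A B sample, and 37 above and 17 below after quantile normalization. After median centring it was 19 above and 35 below. Differences, given throughout in log2 units as SOD1-G93A minus NonTG, ran from -0.17 for Ndufa5 to 0.13 for Cox5a. Each of these rested on 1 NonTG sample, with 0.034 for Ndufa5 without sample C and 0.00035 for Cox5a without sample A. Their median was -0.0063, against 0.0070 over all probe sets tested and -0.022 over those bright ones. In cultures of this kind, fewer cells of a type and less RNA per cell cannot be told apart.

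**Figure D1:**
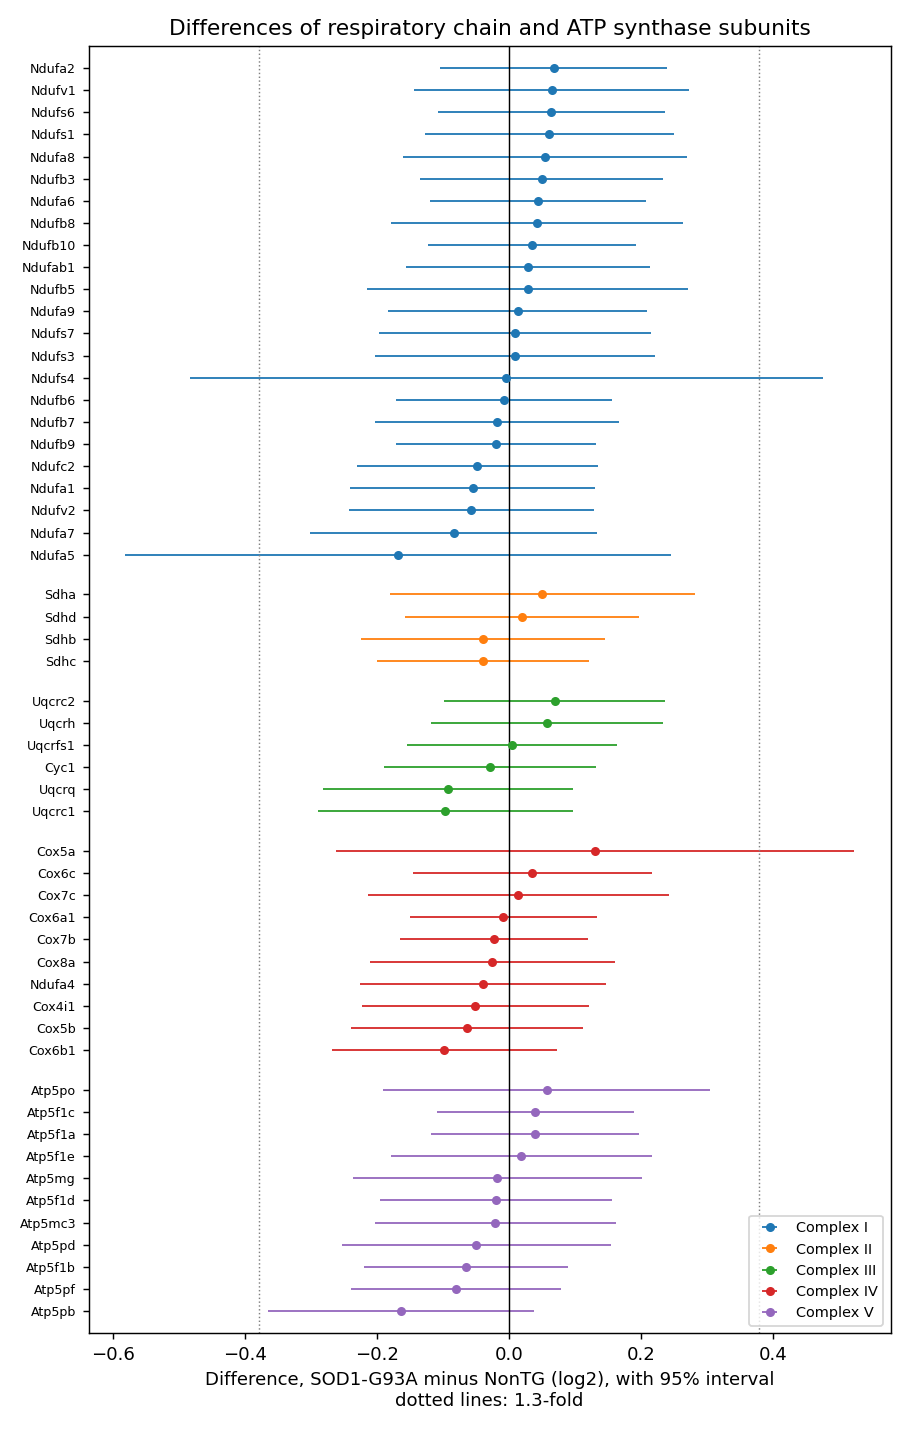
Difference of each of the 54 measured subunits on the log2 scale (horizontal axis, SOD1-G93A minus NonTG) with its 95% confidence interval, ordered by complex; dotted lines mark 1.3-fold in both directions. All intervals include 0, and only those of Ndufs4, Ndufa5 and Cox5a cross a dotted line.

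The intervals show how large a difference these arrays could still hide. For 51 of the 54 subunits the whole 95% confidence interval stayed inside 1.3-fold up or down, against 33.5% of all probe sets and 82.4% of the bright ones. For all 54 it stayed inside 1.5-fold, against 63.6% of all probe sets and 95.9% of the bright ones. The 3 subunits with intervals that reached past 1.3-fold were Ndufs4, Ndufa5 and Cox5a. The median absolute difference was 0.041, or 2.87%, against 0.10, or 7.19%, over all probe sets. Bright probe sets are measured more precisely on these arrays, and the subunits lay at the 96.3rd percentile of mean signal in the median. A comparison with the bright probe sets was therefore added after the values were seen. It did not match brightness, with a median signal of 5560 over the subunits and 3633 over the bright probe sets. Of the 54 subunits, 50 were bright by the same limit. All 50 had intervals inside 1.3-fold, and the standard deviation of their differences was 0.054. Over the bright probe sets, the median absolute difference was 0.060 and the median standard error 0.088. The subunits' median standard error was 0.082. The standard deviation of the differences was 0.060 over the subunits, against 0.11 over the bright probe sets and 0.21 over all of them.

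**Figure D2:**
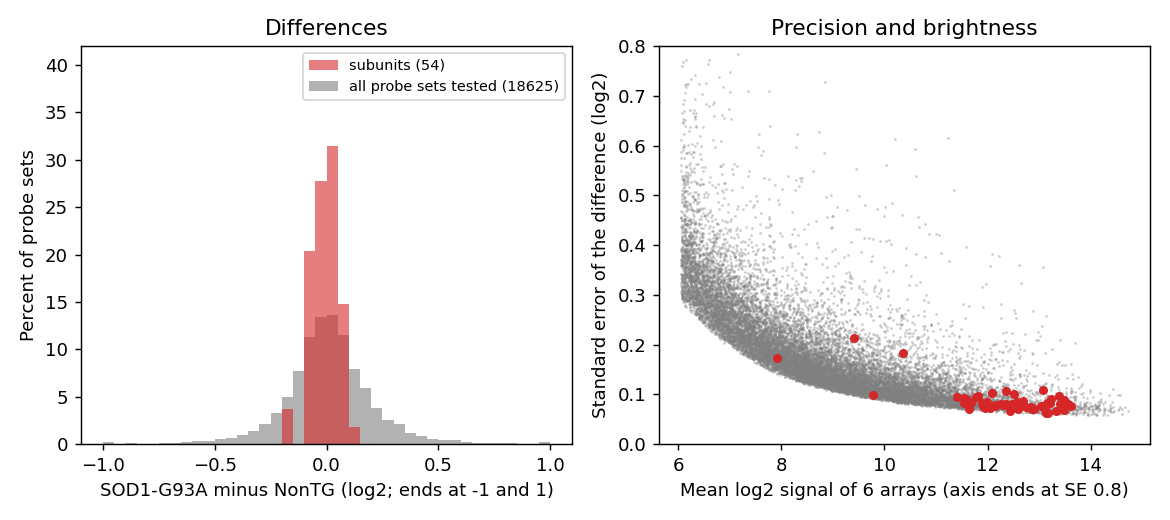
Left, distribution of the differences (log2, SOD1-G93A minus NonTG) as percent of probe sets, for the 54 subunits in red and all 18625 probe sets tested in grey; right, standard error of the difference against mean log2 signal, same colours. The red bars fill a narrow band around 0, and most red points lie at high signal with a standard error near 0.082.

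Signals repeated closely within each group. The coefficient of variation over the 3 samples had a median of 6.52% in SOD1-G93A cultures and 5.76% in NonTG cultures, where all probe sets had medians of 11.98% and 11.46%. From the lowest to the highest of the 6 arrays, 52 of 54 subunits varied by less than 1.5-fold, against 59.4% of all probe sets. The 2 exceptions were Ndufs4, at 1.87-fold, and Ndufa5, at 1.74-fold. Ndufb10 had the narrowest range, 1.06-fold. These spreads were not compared at like brightness, and bright probe sets are measured more precisely.

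Complex I, which oxidises NADH, had 23 measured subunits, 14 with a difference above 0 and 9 below, with a median of 0.013. That median was -0.0067 after median centring. The subunits that take electrons from NADH had differences of 0.064 for Ndufv1, which binds the flavin, -0.057 for Ndufv2 and 0.060 for Ndufs1, both of which hold iron-sulfur clusters. Ndufs3 and Ndufs7, core subunits of the arm that leads to ubiquinone, had differences of 0.0081 and 0.0084. The standard errors of these 5 were between 0.082 and 0.094, and none of them passed the test. The membrane arm, represented by 11 accessory subunits, had 6 differences above 0 and 5 below, between -0.056 for Ndufa1 and 0.054 for Ndufa8.

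Ndufa2, an accessory subunit of the matrix arm, had the highest difference in complex I. Its signal was 3827, 4088 and 3876 in SOD1-G93A samples A, B and C, against 3534, 3777 and 3949.9 in NonTG samples A, B and C. The groups overlapped through the NonTG C sample, and the difference was 0.067 (SE 0.076, 95% interval -0.10 to 0.24). Ndufa5, also an accessory subunit of the matrix arm, had the lowest difference of all members. Its signal was 1084, 1299.7 and 1328 in SOD1-G93A samples, against 1050.1, 1380.2 and 1831 in NonTG samples. The NonTG C sample stood highest and the NonTG A sample lowest, so the SOD1-G93A samples lay within the NonTG range. The difference was -0.17 (SE 0.18, interval -0.58 to 0.25), and it was 0.034 without the NonTG C sample. Ndufa7, another accessory subunit, had signals of 3358, 4022 and 3206 in SOD1-G93A samples, against 3699, 3605 and 3870.0 in NonTG samples. The SOD1-G93A B sample stood above every NonTG sample and the other SOD1-G93A samples below, giving a difference of -0.084 (SE 0.096). Its second, dimmer probe set had a difference of -0.11 (SE 0.18).

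A pair of complex I subunits was singled out after their values were seen. Ndufs4, an accessory subunit whose loss causes Leigh syndrome in humans and a like disease in mice, varied most between arrays. Its signal was 622, 754 and 674 in SOD1-G93A samples, against 602, 532 and 995 in NonTG samples. The SOD1-G93A samples lay inside the wider NonTG range, and the interval of the difference, -0.48 to 0.47, leaves changes of more than 1.3-fold in both directions possible. Ndufb10, a membrane arm subunit that faces the intermembrane space, was the only subunit above NonTG with no overlap, where 4% of all probe sets were higher with no overlap. Its signal was 3193, 3263 and 3223 in SOD1-G93A samples, against 3081, 3184 and 3185 in NonTG samples. The gap between the groups was small, and the difference was 0.035 (SE 0.070, unadjusted p = 0.631 and adjusted p = 1.00 in limma).

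Complex II, succinate dehydrogenase, is the only complex of the chain that also works in the citric acid cycle, and all of its subunits are nuclear. Its 4 genes had a median difference of -0.011, with 2 above 0 and 2 below. Sdha, the flavoprotein that oxidises succinate, had signals of 3889, 4965 and 4496 in SOD1-G93A samples, against 4190.3, 4639 and 4025 in NonTG samples. The lowest and the highest of these values were both SOD1-G93A, and the difference was 0.050 (SE 0.10). Sdhb, the iron-sulfur subunit, had 4957, 5215 and 4406 in SOD1-G93A samples, against 4906, 5152 and 4896 in NonTG samples. The NonTG samples lay inside the SOD1-G93A range, with a difference of -0.040 (SE 0.082). Sdhc, a membrane anchor, had 6971, 7751 and 7276 in SOD1-G93A samples, against 7224, 7785 and 7598 in NonTG samples. It was lower in SOD1-G93A within each letter, although the groups overlapped, and the difference was -0.040 (SE 0.071). Sdhd, the other membrane anchor, had 4858, 5322 and 4943 in SOD1-G93A samples, against 5287, 5014 and 4636 in NonTG samples. These groups overlapped, with a difference of 0.019 (SE 0.079) and one of 0.079 (SE 0.084) on its second probe set.

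Complex III, which passes electrons from ubiquinol to cytochrome c, had 6 measured subunits, 3 above 0 and 3 below, with a median of -0.012. Its redox subunits sat near 0, with differences of -0.028 (SE 0.071) for Cyc1, cytochrome c1, and 0.0046 (SE 0.071) for Uqcrfs1, the Rieske iron-sulfur protein. The core proteins, which build the part that extends into the matrix, had differences of opposite sign. Uqcrc1 had signals of 3690.3, 4236 and 3827 in SOD1-G93A samples, against 4110.5, 4512 and 3945 in NonTG samples. It was lower in SOD1-G93A within each letter while the groups overlapped, and the difference was -0.097 (SE 0.086, interval -0.29 to 0.097). Uqcrc2 had 6468, 7386 and 7149 in SOD1-G93A samples, against 6849.8, 6664 and 6483 in NonTG samples. Samples B and C of SOD1-G93A stood above all NonTG samples and sample A below them, with a difference of 0.069 (SE 0.074). Its second probe set had a difference of 0.22 (SE 0.10, unadjusted p = 0.0688 in limma), the largest on any probe set of a complex III subunit. Uqcrq, a small subunit, had 5818, 6241 and 5574 in SOD1-G93A samples, against 5802, 6854 and 6179 in NonTG samples. The groups overlapped and the difference was -0.093 (SE 0.084).

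Complex IV, cytochrome c oxidase, had 10 measured nuclear subunits, 3 above 0 and 7 below, with a median of -0.024. Cox4i1, which is needed to assemble the complex, had a difference of -0.051 (SE 0.076), and Ndufa4, first assigned to complex I and now placed in complex IV, had -0.040 (SE 0.082). The highest and the lowest differences in the complex were those of Cox5a and Cox6b1. Cox5a was read from a dim probe set, where the median signal over the complex was 9131. The gene is also named on 1 probe set with several symbols, which was not used, so how well its transcript was read is not known. Cox5a signals were 265, 263 and 229 in SOD1-G93A samples, against 192, 238 and 266 in NonTG samples. The NonTG samples spanned the SOD1-G93A samples, and the difference was 0.13 (SE 0.17, interval -0.26 to 0.52), or 0.00035 without the NonTG A sample. Cox6b1, which faces the intermembrane space, had 7311, 7377 and 6734 in SOD1-G93A samples, against 7106, 7903 and 7931 in NonTG samples. The groups overlapped through NonTG A, and the difference was -0.098 (SE 0.076, interval -0.27 to 0.072). Cox5b, a subunit on the matrix side, had 5946, 6303 and 5632 in SOD1-G93A samples, against 5883, 6654 and 6153 in NonTG samples. These groups also overlapped, with a difference of -0.063 (SE 0.078).

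Complex V had 11 measured subunits, 4 above 0 and 7 below, with a median of -0.020. After quantile normalization this median was 0.033, and those of complexes II, III and IV also turned above 0. The 5 subunits of the catalytic head and central stalk had 3 differences above 0 and 2 below, with a median of 0.018. Atp5f1b, the beta subunit that carries the catalytic sites, had signals of 10484, 11627 and 11377 in SOD1-G93A samples, against 11653, 12105 and 11269 in NonTG samples. The groups overlapped, and the difference was -0.066 (SE 0.069). The peripheral stalk, which holds the head still while the rotor turns, had 3 of its 4 subunits below 0 and a median of -0.065. Atp5pb, subunit b of that stalk, had 9833, 11350.2 and 11471 in SOD1-G93A samples, against 11216, 13345 and 12026 in NonTG samples. It was lower in SOD1-G93A within each letter, with an overlap through NonTG A, and had the smallest p of all members, with a difference of -0.16 (SE 0.089, interval -0.36 to 0.037, unadjusted p = 0.0985 in limma). With the letter as a block, its unadjusted p was 0.0154 and its adjusted p 0.834 in limma. It was the only subunit at an unadjusted p under 0.05 in that fit, where 3% of all probe sets were lower at that level, 2.85% higher, and 0 of 18625 passed after adjustment (0%).

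Atp5pf, coupling factor 6 of the same stalk, was the only subunit below NonTG with no overlap, where 3.51% of all probe sets were lower with no overlap. Without the SOD1-G93A B sample, which leaves 2 samples against 3, 8 subunits were lower with no overlap, against 7.51% of all probe sets. Its signal was 5081, 5590.4 and 5555 in SOD1-G93A samples, against 5768, 5758 and 5621 in NonTG samples. The highest SOD1-G93A value and the lowest NonTG value lay close together, and the difference was -0.081 (SE 0.070). Atp5po, the subunit that joins the stalk to the top of the head, had 7807, 10293 and 8287 in SOD1-G93A samples, against 7898, 9217 and 8137 in NonTG samples. The B sample stood highest in both groups, and the difference was 0.056 (SE 0.11). Atp5mc3, of the proton-carrying c ring, had a difference of -0.022 (SE 0.081).

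**Figure D3:**
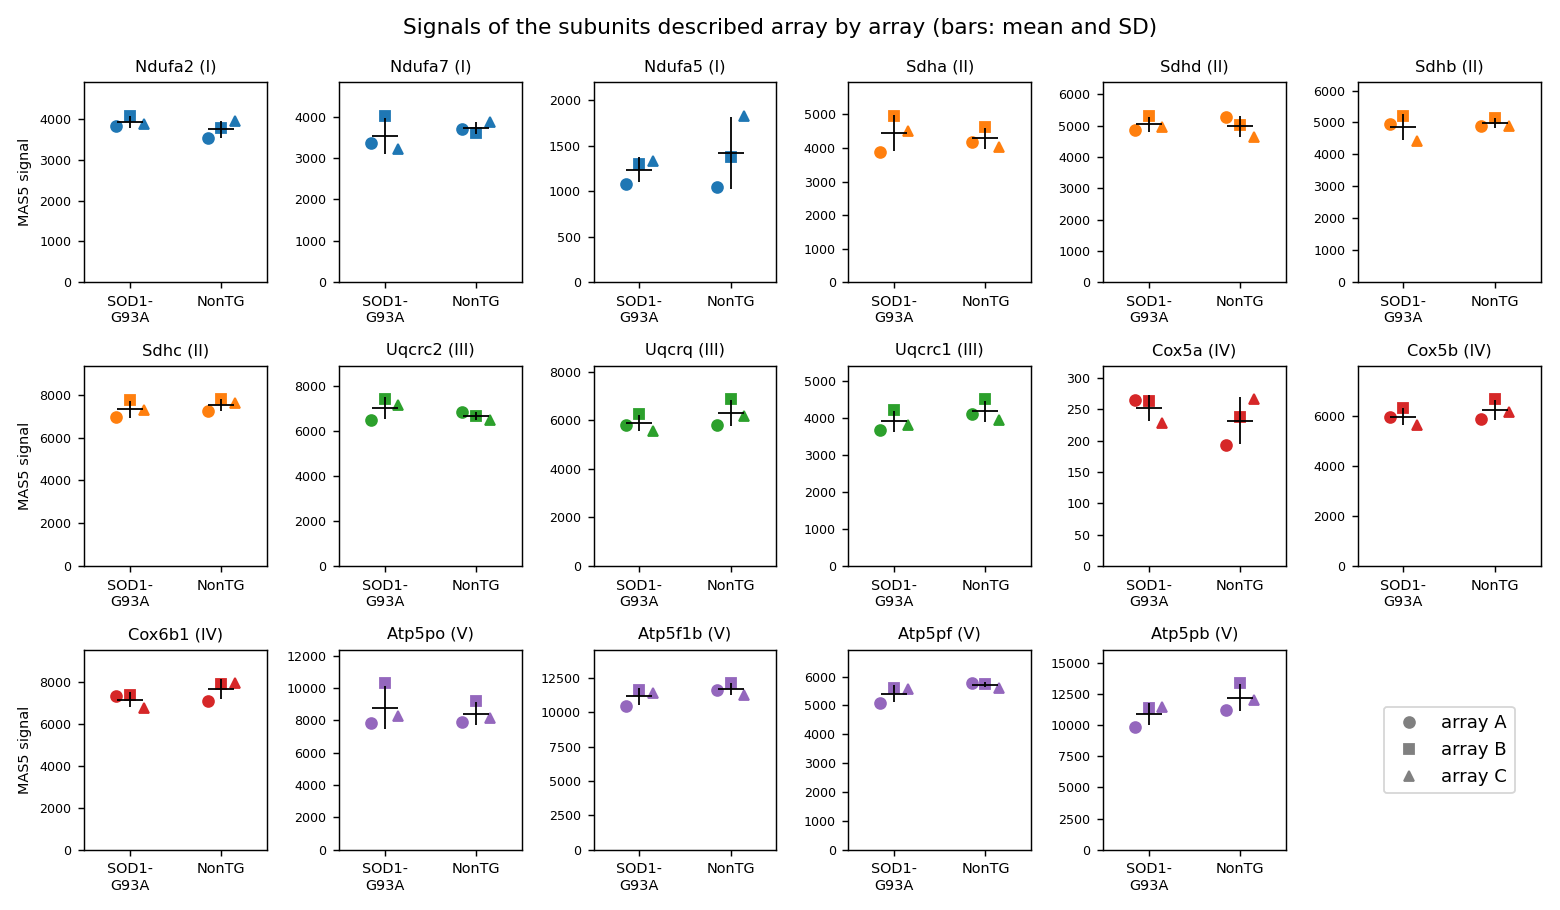
MAS5 signal (vertical axis, starting at 0) on every array of the 17 subunits described array by array apart from those singled out afterwards, with SOD1-G93A at the left and NonTG at the right of each panel; circles, squares and triangles are samples A, B and C, and black lines show the mean and SD of 3. Atp5pf is the only panel without overlap of the groups, and Ndufa5 has the widest NonTG spread relative to its mean.

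Comparing samples of the same letter gave no common direction across the set. Within letters A, B and C the median difference over the 54 subunits was -0.020, 0.035 and -0.016. The difference had the same sign within all 3 letters for 8 subunits. It was above 0 in all 3 for Ndufab1 and Ndufb10, 2 of 54, against 13.5% of all probe sets. It was below 0 in all 3 for Atp5pb, Atp5pf, Uqcrc1, Sdhc, Ndufb9 and Ndufc2, 6 of 54, against 12.2% of all probe sets.

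Most subunits had their highest signal on the arrays lettered B in both groups, a pattern that was looked at after the values were seen. The range of the 3 letter means was larger than the absolute difference between SOD1-G93A and NonTG for 52 of 54 subunits, against 83.4% of all probe sets. The highest of the 6 arrays was lettered B for 43 subunits, against 37.2% of all probe sets and 44.4% of those with a mean log2 signal of 11 or more. It was the SOD1-G93A B array for 27 subunits and the NonTG B array for 16. The lowest array was lettered A for 31, against 33.7% of all probe sets and 36.8% of the bright ones. Both B arrays stood above all 4 others for 27 of 54, against 10.4% of all probe sets and 385 of the 2446 bright ones.

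**Figure D4:**
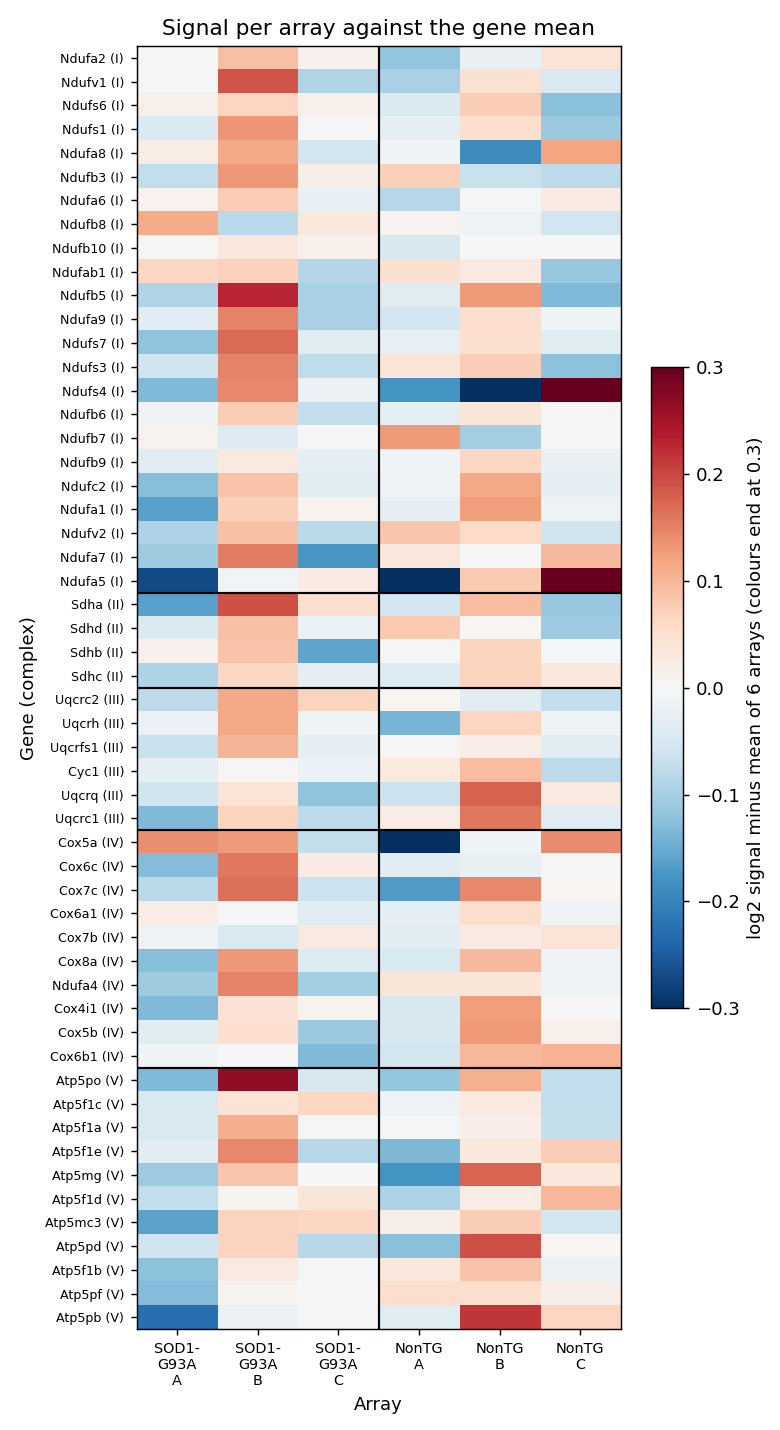
Colour gives the log2 signal of each subunit (rows, by complex) minus its mean over the 6 arrays (columns, SOD1-G93A left of the line and NonTG right of it; colours end at 0.3 in both directions). The B column stands out as high in both groups, with the highest array lettered B for 43 of 54 subunits.

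The letter pattern ran through all complexes. Taken as the median over its subunits of the log2 signal minus the gene's mean, complex I stood at -0.034, 0.088 and -0.027 on the SOD1-G93A A, B and C arrays, against -0.026, 0.045 and -0.022 on the NonTG arrays. Complex V stood at -0.11, 0.066 and -0.0028 on the SOD1-G93A arrays, against -0.035, 0.074 and 0.0068 on the NonTG arrays. Complexes II, III and IV lay between 0.085 and 0.089 on the SOD1-G93A B array and between 0.068 and 0.079 on the NonTG B array. All 54 subunits together stood at -0.060, 0.085 and -0.024 on the SOD1-G93A arrays and at -0.031, 0.052 and -0.012 on the NonTG arrays.

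**Figure D5:**
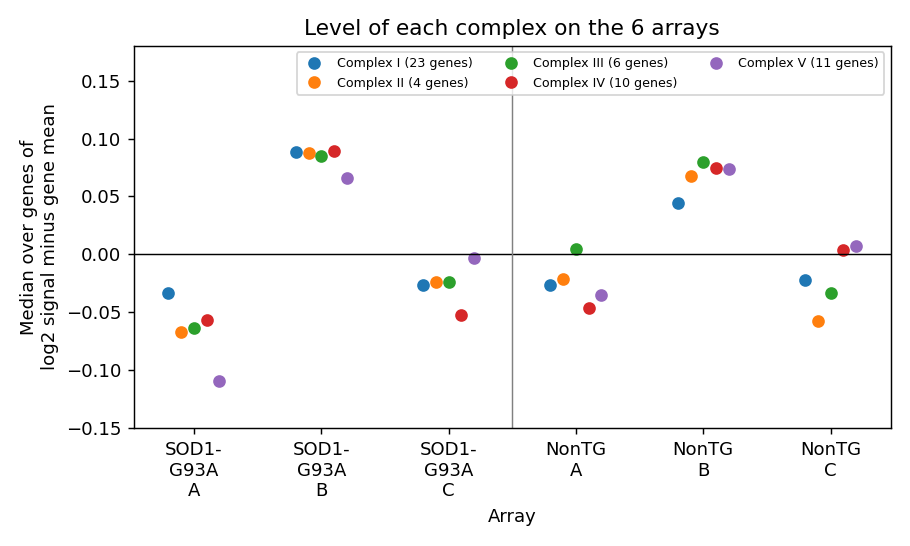
Median over the subunits of each complex of the log2 signal minus the gene's mean of 6 arrays (vertical axis) for the 3 SOD1-G93A arrays at the left and the 3 NonTG arrays at the right; one coloured point per complex. All 5 points lie above 0 on the B array of both groups.

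In a limma fit of the B samples against the A and C samples of both groups, 49 of 54 subunits were higher on the B arrays. Of all probe sets 51.6% were higher on B, and of the bright ones 57.5%. The median B minus A and C difference was 0.10, or 1.07-fold, against 0.0076 over all probe sets and 0.024 over the bright ones. An unadjusted p under 0.05 was reached by 15 subunits higher on B, against 6.8% of all probe sets and 13.7% of the bright ones, and by 0 lower, against 6.97% of all. After quantile normalization or median centring 7 subunits reached that level higher on B. The shares of all and of bright probe sets under those settings are not given here, so that count has no background beside it. None of the 54 had an adjusted p under 0.05 in limma, while 0.242% of all probe sets were higher and 0.483% lower at that level. Since the letter B was picked out by these same values, the p-values describe the pattern and do not test it independently. The smallest adjusted p was that of Atp5po, whose B minus A and C difference was 0.28 (SE 0.062, adjusted p = 0.0859 in limma). Ndufb5, a membrane arm subunit of complex I singled out for this pattern, had signals of 4899.9, 6109.7 and 4873 in SOD1-G93A samples, against 5085, 5697 and 4754 in NonTG samples. Its B samples stood above the other samples of both groups, by 0.27 (SE 0.066, adjusted p = 0.117 in limma). Cox7c, a small complex IV subunit chosen in the same way, had 5512, 6532 and 5572 in SOD1-G93A samples, against 5182, 6436 and 5845 in NonTG samples. Its B difference was 0.23 (SE 0.065, adjusted p = 0.156 in limma).

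Some markers of other cells differed with the letter as well. The 9 tested markers of pericytes and smooth muscle were all lower on the B arrays, with a median of -0.75. An unadjusted p under 0.05 in limma was reached by 8 of them, and an adjusted p under 0.05 by 1. Over all probe sets, 6.97% were lower on B at that unadjusted level and 0.483% at the adjusted one. The summed signal of the 10 such genes on the array was 29918, 17923 and 25593 in SOD1-G93A samples, against 27844, 24071 and 30221 in NonTG samples. The 10 fibroblast markers had 5 higher and 5 lower on B, with a median of -0.0084 and 4 of the lower ones at an unadjusted p under 0.05, and summed to 76413, 54720 and 67310 in SOD1-G93A samples, against 76776, 72299 and 72705 in NonTG samples. Astrocyte markers were higher on B for 9 of 10, against 51.6% of all probe sets and 57.5% of the bright ones, with a median of 0.12. At an unadjusted p under 0.05 in limma 4 were higher, against 6.8% of all probe sets and 13.7% of the bright ones. The astrocyte markers summed to 97980, 116436 and 112175 in SOD1-G93A samples, against 104224, 117692 and 106614 in NonTG samples. Neuron markers had 4 higher and 5 lower on B, with a median of -0.059 and 3 of the lower ones at an unadjusted p under 0.05. Oligodendrocyte lineage markers had 4 higher and 2 lower, with a median of 0.28 and 2 of the higher ones at that level, against 6.8% of all probe sets. The ratio of the 3' to the 5' Gapdh control probe set, which stays near 1 in intact RNA, was 0.996, 1.01 and 1.00 in SOD1-G93A samples, against 0.998, 0.954 and 1.01 in NonTG samples. What part cell makeup has in the letter pattern of the subunits was not tested, and no label says what a letter stands for.

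The same markers were read for the comparison between the groups. All 10 astrocyte markers on the array passed the dim filter in these cultures, with 5 differences above 0, 5 below and a median of 0.010. Fabp7, the brightest of them, had a difference of -0.096 (SE 0.066). Aqp4, the astrocyte water channel, had 14272, 18772 and 17756 in SOD1-G93A samples, against 15622, 16449 and 14412 in NonTG samples, a difference of 0.12 (SE 0.10). Of 12 microglia markers, 10 lay below the dim filter, and the 12 summed to between 442 and 622 in SOD1-G93A samples, against 384 to 569 in NonTG samples. The pericyte and smooth muscle markers had a median difference of -0.20 between the groups, with 9 of 9 below 0, 1 at an unadjusted p under 0.05 and 0 past an adjusted p of 0.05 in limma. Within letter A, 7 of the 9 were above 0, with a median of 0.15, while within B and C 0 of 9 were, with medians of -0.59 and -0.51. The 10 fibroblast markers had 5 differences above 0 and 5 below, with a median of 0.063. The 3 brightest, Col1a2, Col3a1 and Fn1, were lower, at -0.12, -0.23 and -0.19, Col1a2 with no overlap (3.51% of all probe sets). Dcn, Aldh1a2 and Fbln1, singled out after their values were seen, were higher with no overlap (4% of all probe sets). They were the only ones of the 10 at an unadjusted p under 0.05 (1.34% of all were higher). With the letter as a block, 5 were lower at that level in limma and 3 higher, against 3% and 2.85% of all probe sets. Dcn, which encodes decorin of the extracellular matrix, had 667, 283 and 349 in SOD1-G93A samples, against 59.1, 92.3 and 63.9 in NonTG samples, a difference of 2.52 (SE 0.32, adjusted p = 0.40 in limma). Aldh1a2, an enzyme of retinoic acid synthesis, had a difference of 1.15 (SE 0.23), and Fbln1, a matrix protein, had 0.41 (SE 0.15), both with an adjusted p of 1.00 in limma. Of 9 tested neuron markers, 5 were above 0 and 4 below, with a median of 0.11 and 0 at an unadjusted p under 0.05 in limma. Of 6 tested oligodendrocyte lineage markers, 5 were above 0, with a median of 0.44. With no overlap 2 were higher, against 4% of all probe sets. At an unadjusted p under 0.05 in limma 2 were higher, against 1.34% of all, and 0 passed after adjustment. With the letter as a block, 3 were higher at that unadjusted level and 1 lower, against 2.85% and 3% of all. The 11 on the array summed to between 5817 and 7770 in SOD1-G93A samples, against 5285 to 5948 in NonTG samples. The mean 3' to 5' ratio was 1.00 ± 0.0062 in SOD1-G93A and 0.988 ± 0.030 in NonTG for Gapdh (SD, n = 3 each, two-sided exact permutation p = 0.7). It was 1.12 ± 0.021 in SOD1-G93A and 1.16 ± 0.029 in NonTG for actin (two-sided exact permutation p = 0.2), where 3 against 3 cannot give a p below 0.1. The part of these in the subunits' differences was not tested.

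Genes that complete the pathway did not pass the test either. Other nuclear subunits outside the set, 18 of 22 measured, had 4 differences above 0 and 14 below, with a median of -0.043 and 0 at an adjusted p under 0.05 in limma. Of all probe sets 52% were above 0, and of the bright ones 40.4%. Uqcr10, a small complex III subunit, had signals of 7535, 7994 and 7263 in SOD1-G93A samples, against 8246, 8611 and 8859 in NonTG samples. All SOD1-G93A samples stood below all NonTG samples, with a difference of -0.17 (SE 0.069, unadjusted p = 0.0320 and adjusted p = 1.00 in limma). Ndufb2, in the membrane arm of complex I, was also lower with no overlap, with a difference of -0.11 (SE 0.071). Ndufa12, which binds the matrix arm, was higher with no overlap, with a difference of 0.11 (SE 0.075). Of the 18, 2 were lower and 1 higher with no overlap, where 3.51% and 4% of all probe sets were. Uqcr10 was the only one at an unadjusted p under 0.05 in limma, where 1.2% of all probe sets were lower. At the B arrays 17 of these 18 subunits were higher, with a median of 0.091, against 51.6% of all probe sets and 57.5% of the bright ones.

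Only COX1 and COX2 of the mitochondrially encoded subunits, which are part of the catalytic core of complex IV, were named on a probe set with a single symbol. COX1 had signals of 21873, 28592 and 22481 in SOD1-G93A samples, against 23725, 23493 and 22396 in NonTG samples. The SOD1-G93A B sample stood above the other 5, and the difference was 0.057 (SE 0.099). COX2 had 24783, 28140.2 and 26407 in SOD1-G93A samples, against 26979, 28465 and 27619 in NonTG samples. The groups overlapped, with a difference of -0.068 (SE 0.066). Signals of both genes lay near the highest deposited value, 28899, and whether signals there are compressed was not tested. Among 7 subunit forms best known from muscle, testis, lung or hypoxic cells, 4 lay below the dim filter (Cox4i2, Cox6a2, Cox7b2 and Cox8b). The other 3 were Cox7a1 at -0.52 (SE 0.42), Cox6b2 at 0.32 (SE 0.28) and Ndufa4l2 at -0.24 (SE 0.35), with wide intervals at low signal.

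Assembly factors, which build the complexes and are not part of them, had 41 tested genes with 23 differences above 0, 18 below and a median of 0.014. Hccs, which attaches heme to cytochrome c, had signals of 767, 754 and 871 in SOD1-G93A samples, against 649, 674 and 743 in NonTG samples. The groups did not overlap, and the difference was 0.21 (SE 0.11, unadjusted p = 0.0883 and adjusted p = 1.00 in limma). Of the 41 assembly factors, 2 were higher with no overlap and 0 lower, against 4% and 3.51% of all probe sets. Uqcc3, an assembly factor of complex III, had a difference of 0.21 (SE 0.14), and Higd1a, a hypoxia-induced protein that binds complex IV, had -0.12 (SE 0.084). Genes of ubiquinone synthesis, of the other routes into ubiquinone, and of carrier and uncoupling proteins of the inner membrane were taken as a single list. This list numbered 22 tested, 14 above 0 and 8 below, with a median of 0.041. Pdss2, for the ubiquinone side chain, had the smallest p of these, with signals of 221, 341 and 287 in SOD1-G93A samples, against 246, 100.5 and 263 in NonTG samples. The low NonTG B sample stood apart from the others, and the difference was 0.58 (SE 0.35), or 0.13 without that sample. Etfdh, which passes electrons from fatty acid oxidation to ubiquinone, had a difference of 0.16 (SE 0.10), and Coq8a, of ubiquinone synthesis, had -0.40 (SE 0.28).

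Promoter sequence, which the choice of genes did not use, was searched for motifs of factors known to act on respiratory chain genes. RefSeq promoter sequences of build GRCr8, from 250 bases before to 50 after each gene's start, were matched to 52 of the 59 members, and both strands were searched. The NRF1 motif, GCGC, then an A and any base, then GCGC again, was the first of them. It occurred in 7 of 52 promoters, or 13.5%, against 10.8% of the 8776 promoters of tested genes and 4.25% of all 33469 promoters. The 3 stretches below were chosen because their genes are described above, with the motif in capitals and 25 bases on either side, 5′ to 3′ on the strand of the gene. Ndufa5 is at chr4:53971233-53971292 on the minus strand, Sdha at chr1:30764439-30764498 on the plus strand, and Atp5po at chr11:44657508-44657567 on the minus strand. Sdha had 3 matches in its promoter, and the one farthest from the start is shown.
Ndufa5: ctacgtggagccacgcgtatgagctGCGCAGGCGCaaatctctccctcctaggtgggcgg
Sdha: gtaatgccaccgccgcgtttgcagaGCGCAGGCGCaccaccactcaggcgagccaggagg
Atp5po: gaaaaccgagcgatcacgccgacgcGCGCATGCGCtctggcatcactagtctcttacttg

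The ETS motif (CCGGAAG), which GABP, also called NRF2, and related factors bind, occurred in 17 of 52 promoters, or 32.7%, against 18.9% of the promoters of tested genes and 8.75% of all. The examples are from complexes III, IV and V, each with the motif in capitals in the direction of the gene. Uqcrq is at chr10:38089969-38090025 on the minus strand, Cox5b at chr9:46417798-46417854 on the plus strand, and Atp5pf at chr11:37375154-37375210 on the minus strand.
Uqcrq: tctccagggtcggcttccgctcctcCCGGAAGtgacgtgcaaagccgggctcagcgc
Cox5b: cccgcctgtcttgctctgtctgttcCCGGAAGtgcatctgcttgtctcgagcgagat
Atp5pf: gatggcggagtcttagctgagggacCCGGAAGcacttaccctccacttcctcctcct

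The YY1 motif (AAGATGGC) occurred in 12 of 52 promoters, or 23.1%, against 5.94% of the promoters of tested genes and 3.17% of all. Its letters include ATG, and in 9 of the 12 genes the match began after the annotated start, as in Sdhc at chr13:86097990-86098047 and Atp5po at chr11:44657450-44657507, both on the minus strand. Both are shown with the motif in capitals.
Sdhc: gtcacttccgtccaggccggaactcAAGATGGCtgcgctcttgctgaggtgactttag
Atp5po: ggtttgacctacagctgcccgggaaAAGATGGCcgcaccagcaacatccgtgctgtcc

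At least 1 of these 3 motifs occurred in 29 of 52 promoters, or 55.8%, against 31.0% of the promoters of tested genes. The ERR motif (TCAAGGTCA) occurred in 2 members, 3.85% against 0.228% of tested genes, and the CRE motif (TGACGTCA) in 3, 5.77% against 3.44%. The SP1 motif (GGGGCGGGG) also occurred in 3 members, 5.77% against 21.4% of tested genes. Matches of NRF1, ETS and YY1 overlapped one another in 0 of the 52 promoters, and a match is a run of letters, not a measured site. The median difference between SOD1-G93A and NonTG was 0.039 over the 7 measured genes with the NRF1 motif and -0.0045 over the 41 without. It was -0.018 over 16 with the ETS motif and 0.0063 over 32 without. It was 0.011 over 12 with the YY1 motif and -0.013 over 36 without.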

How the data were processed

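Total RNA from 3 SOD1-G93A and 3 NonTG samples was hybridised to Affymetrix Rat Genome 230 2.0 arrays. The submitters' processing notes name MAS5 and GCOS 1.4, and the deposited intensity of each probe set is linear. GC-RMA and a log transformation are named in the design text, but the values used here are linear: their mean after trimming 2% at each end was 500.16 to 500.17 on every array. Depth is not counted on arrays, and their number limits the precision.

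The log2 of each deposited intensity was used without a pseudocount or rescaling. Of 31099 probe sets, 57 controls were left out. Of the other 31042, 20826 had 1 symbol in the platform annotation, 436 several and 9780 none, and those with several named no gene. A filter at the 40th percentile of mean log2, which is a signal of 66.7, removed dim probe sets and left 18625.

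Groups came from the sample titles. For the comparison of SOD1-G93A and NonTG, limma 3.58.1 in R 4.3.3 was used (lmFit, then eBayes with its trend option). Tests were two-sided and adjusted by Benjamini-Hochberg over the 18625 probe sets, at a threshold of 0.05. The method was tested on simulated data with known differences. Exact permutation tests used scipy 1.17.1. Genes described array by array were, in each complex, the 3 with the smallest p, the highest and the lowest, all of complex II and those whose probe sets differed most. From each other list the 3 with the smallest p were eligible, or in marker lists the 3 brightest, and any gene singled out later is named as such. The members and lists were chosen with earlier results of these data known.

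The labels do not say whether the letters A, B and C in the titles pair the samples. Deviations from the group means correlated at 0.20 to 0.30 within a letter (A 0.30, B 0.25, C 0.20) and at -0.28 to 0.025 between different letters. Because each group was centred on its own mean, positive values within letters bring negative ones between letters on average. The letter as a block was an alternative, with quantile normalization, median centring, other filters, a pseudocount of 16, array weights, the mean over probe sets and leaving out each sample. The fit of B against A and C was added after the values were seen.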

Additional observations from a re-analysis of the deposited data

How the results depend on the processing

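With 0 of 54 subunits called, the count of calls stayed at 0 under all 15 alternatives, and the smallest adjusted p among the subunits ranged from 0.820, without the SOD1-G93A A sample, to 1.00. With the replicate block the unadjusted count over all probe sets was 1090, against 474 without it. This count was 480 with median centring, 1005 with the random replicate block and 340 to 1183 when each sample was left out in turn. Subunits lower at an unadjusted p under 0.05 numbered 1 with median centring, 1 with the replicate block and 1 with the random replicate block, and the block changed no call apart from this one; the number was 0 to 2 when each sample was left out in turn. Quantile normalization gave 37 subunits above 0 and 17 below, and a median of 0.027. It turned the medians of complexes II, III, IV and V above 0, to 0.014, 0.018, 0.022 and 0.033. The median of complex I turned below 0 with median centring (-0.0067) and with array weights (-0.011). When each sample was left out in turn, the median of every complex ran from below 0 to above 0. Subunits not overlapping and higher numbered 0 with median centring; those not overlapping and lower numbered 0 with quantile normalization and 2 with median centring. Leaving out each sample gave 12 to 34 subunits above 0 and 20 to 42 below, 1 to 4 not overlapping and higher, 1 to 8 not overlapping and lower, and a median from -0.054 (without SOD1-G93A B, which also gave 12 above 0) to 0.032 (without SOD1-G93A A).

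The sign turned for Sdhd with median centring (-0.00092), and with the mean over probe sets for Atp5po (-0.21) and Hccs (-0.056), whose further probe sets enter that mean. Leaving out a sample, the difference ranged from -0.37 to 0.034 for Ndufa5, -0.033 to 0.14 for Sdha, -0.093 to 0.029 for Sdhb, -0.032 to 0.063 for Sdhd, -0.062 to 0.14 for Atp5po, -0.065 to 0.13 for COX1 and -0.50 to 0.027 for Ndufa4l2. For the letter B pattern, quantile normalization and median centring each left 49 subunits higher and 7 at an unadjusted p under 0.05, against 15. In the main fit, 13.7% of the bright probe sets were higher at that level, and the shares under the other settings are not given here. Apart from the probe set mean and the samples left out, the cause was not tested. Bright probe sets had a median standard error of 0.088, against 0.16 over all of them. Cox5a, read at a signal near 241, had one of 0.17, while the brighter Ndufs4 and Ndufa5 had 0.21 and 0.18. What part low signal has in these was not tested.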
